A study of Mus musculus with 6 samples.

Results

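The cytosolic ribosomal protein genes were examined in whole kidneys of mouse pups that differed in maternal iron supply. Members were taken by symbol, as every row of the count tables whose name begins with Rpl or Rps followed by a digit, together with Rplp0, Rplp1, Rplp2 and Rpsa. Symbols beginning with Rps6k (kinases) or containing "-ps" (pseudogenes) were left out. The rule found 88 of 24422 gene symbols. Of these, 77 encode canonical proteins of the small (31 genes) or large (46 genes) subunit and are called core genes here. A further 8 were listed as paralogs of a core gene and 2 (Rpl37rt and Rps27rt) as retrocopies. This split does not follow exon number, since the paralogs Rps4l and Rpl10l have 1 exon, against 7 in Rps4x and Rpl10. Rps19bp1 encodes a protein that binds a ribosomal protein and is no part of the ribosome. The rule missed ribosomal proteins with other symbols. Of these, Fau is given separately, as is the ribosome-bound scaffold Gnb2l1 (RACK1).

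All pups were wild type C57BL/6 mice, and kidneys were taken at postnatal day 15. Control dams (n = 3 kidneys) ate a diet with 220 ppm iron, and dams of the FeD (iron deficient) group (n = 3 kidneys) ate the TD.80396 diet with 2 to 6 ppm iron. Dams were 8 weeks old when the diets began, before mating, and the diets continued through pregnancy and nursing, so that prenatal and postnatal iron supply cannot be told apart. The sources used here do not say how many litters the kidneys came from. Where pups shared a dam, p-values measure only the spread between these kidneys. Poly-A RNA was sequenced and counted per gene.

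A ribosome joins a small subunit, which reads the mRNA, to a large subunit, which forms peptide bonds, and each subunit is a set of RNAs bound by many small basic proteins made in roughly equal numbers. Most mRNAs for these proteins begin with a C followed by a run of pyrimidines, the 5′ terminal oligopyrimidine (TOP) tract, through which the mTOR kinase and the RNA-binding protein Larp1 control their translation and stability. Ribosomal protein genes are also known for their sensitivity in red cell formation, since inherited loss of 1 copy of several of them causes Diamond-Blackfan anaemia. A count table measures the mRNA and not the protein or its translation, and in whole kidneys fewer cells of a type and less RNA per cell cannot be told apart.

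Counts assigned to genes ranged from 13732173 to 20853293 per kidney. The 3 control kidneys lay close together, whereas FeD kidney 3 stood apart from FeD kidneys 1 and 2. It was also the FeD kidney with Xist at 893 CPM (counts scaled to the library total), against 1.57 and 2.69 in FeD kidneys 1 and 2. Xist, the RNA of the inactive X chromosome, was at 878 and 795 in control kidneys 1 and 2 and at 2.31 in control kidney 3. Both groups therefore held Xist-high and Xist-low kidneys in different numbers, and the results below are given without FeD kidney 3 or with Xist as a term where these change them. Markers of other cells moved with the diet. Markers of cycling cells fell in 10 of 10 genes tested, with a summed level of 147 to 168 CPM in control and 40.3 to 53.9 in FeD kidneys. Summed proximal tubule markers were 16820 to 17680 in control and 11830 to 13290 in FeD kidneys, and 7 of 9 of these fell. Erythroid markers summed to 148 to 217 in control and 50.03 to 91.0 in FeD kidneys. Of these, 2 of 5 tested genes fell, where 23.3% of all genes tested were called lower. Among them Alas2 overlapped between the groups, at 19.1, 42.5 and 26.9 in control and 23.2, 11.2 and 5.13 in FeD kidneys. Other listed genes made up most of the sum, and their cell source was not tested. The defining globin genes Hba-a1, Hba-a2, Hbb-b1 and Hbb-b2 were at 0 in all 6 kidneys, so the erythroid sum holds no counts from them. Counts came from uniquely mapped reads, and copies of globin sequences were not examined. These values do not show that globin mRNA was absent. B and T cell markers summed to 11.7 to 17.7 in control and 6.62 to 7.79 in FeD kidneys, with 3 of 5 tested genes lower. Collecting duct markers summed to 1495 to 1998 in control and 2142 to 3255 in FeD kidneys, with 6 of 9 genes higher and 3 lower. Stromal and endothelial markers summed to 3073 to 3112 in control and 1949 to 2541 in FeD kidneys, with 2 of 10 genes higher and 6 lower. Summed macrophage markers overlapped between the groups (138 to 154 in control and 151 to 177 in FeD kidneys), but 6 of 9 genes were higher and 1 lower, with Fcgr3 at a log2 fold change of 1.51, Itgam at 1.37 and Cd68 at 1.11. Loop and distal tubule markers also overlapped in their sum (7972 to 8823 and 5604 to 8391), and 3 of 8 genes were lower, with Pvalb at -5.08 and Slc12a3 at -1.56. Podocyte markers overlapped too (797 to 838 and 634 to 890), with 1 of 6 genes higher. The part of these markers in the ribosomal protein result was not tested.

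The mRNAs of cytosolic ribosomal proteins were higher in FeD kidneys almost throughout. Their summed counts made up 2.67%, 2.74% and 2.60% of all counts in control kidneys 1, 2 and 3, and 4.02%, 4.07% and 3.33% in FeD kidneys 1, 2 and 3. All FeD kidneys lay above all control kidneys, and FeD kidney 3 lay lowest of its group. The mean share was 2.67% ± 0.073 (SD, n = 3) in control and 3.81% ± 0.41 (SD, n = 3) in FeD kidneys, a ratio of 1.43. The sum is a description, since the members were chosen with results known, and it has no test.

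**Figure D1:**
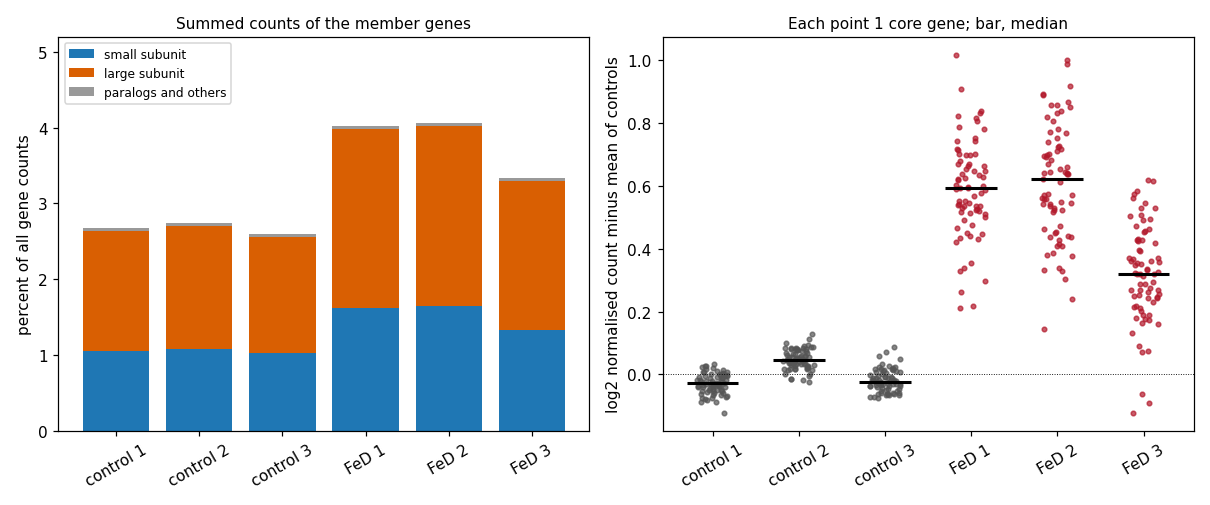
Left, summed counts of small subunit, large subunit and other member genes as a percent of all gene counts in each of the 6 kidneys. Right, log2 normalised count of each core gene minus its mean in the control kidneys, with the median as a bar. FeD kidneys 1 and 2 have medians of 0.59 and 0.62 and FeD kidney 3 of 0.32. Rps27 and Rpl34, with few counts, are not drawn, though the medians quoted include them.

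Of 83 members with enough counts to test, 71 were higher and 2 lower in FeD kidneys at an adjusted P under 0.05, in edgeR (quasi-likelihood fit, Benjamini-Hochberg adjusted for every gene tested). Across all 15145 genes tested, 22.4% were called higher and 23.3% lower. Among core genes, 75 were tested, 69 rose and none fell, and 74 had a positive log2 fold change. The count that fell was 0 in edgeR, 0 at an unadjusted P under 0.05 and 0 in DESeq2, where 71 rose. Of the 6 core genes that were not called, Rpl22, Rplp2, Rpl28, Rpl41 and Rpl34 were in the large subunit. The median log2 fold change of the tested core genes was 0.50, against -0.002 over all tested genes. The groups did not overlap in 69 of the 75 core genes, against 58.1% of all genes tested. In the FeD group, kidney 3 had the lowest value for 74 of 75 core genes. Without FeD kidney 3, 74 core genes rose and their median log2 fold change was 0.62. With Xist as a term, 68 of 75 rose, with a median of 0.45.

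The increase was narrow in size. Only Rps27 passed a fold change of 2 as well, where 4.34% of all genes tested were higher by that rule. The other called core genes lay between a log2 fold change of 0.30 for Rpl7a and 0.85 for Rpl12.

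**Figure D2:**
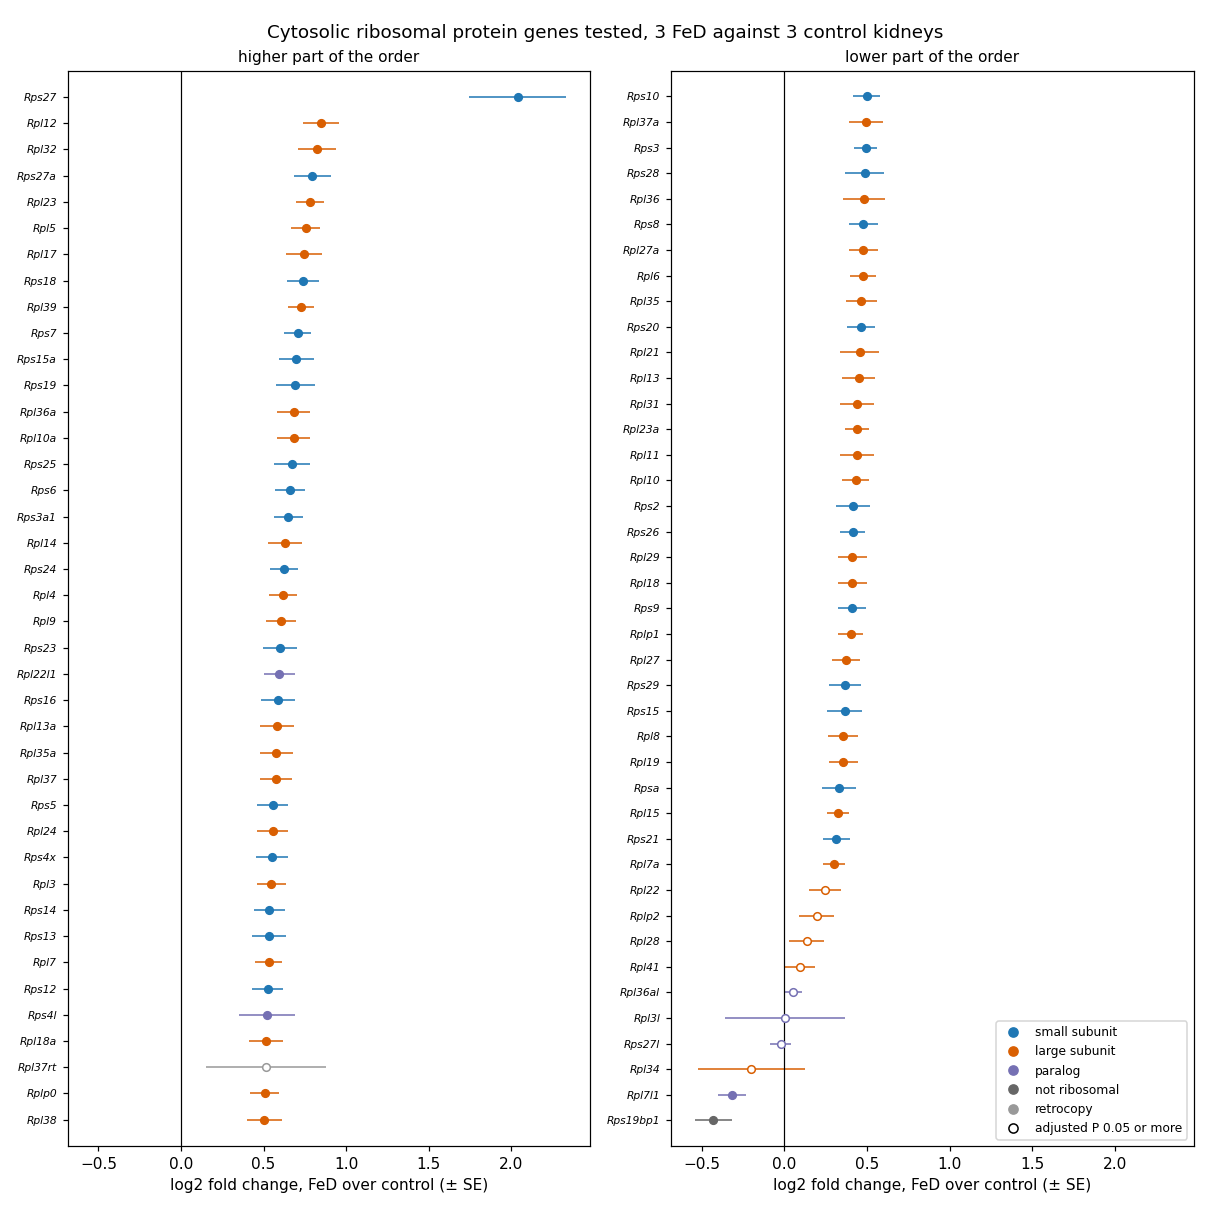
Log2 fold change of FeD over control kidneys with its standard error for tested members, in order of size and coloured by class, with open symbols for genes with an adjusted P of 0.05 or more. Nearly all core genes lie to the right of 0, Rps27 lies far to the right at 2.04, and Rpl7l1 and Rps19bp1 lie to the left.

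Both subunits rose together. In the small subunit 30 of 31 tested genes rose (median log2 fold change 0.53). In the large subunit 39 of 44 rose (median 0.48). The summed counts of the small subunit stood to those of the large subunit at 0.669, 0.669 and 0.668 in control kidneys and at 0.683, 0.688 and 0.673 in FeD kidneys. The ratio of each FeD kidney was above that of each control kidney by a small amount, and no test was made of it.

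Proteins of the small subunit head sit where mRNA and tRNA meet the decoding site. All 14 head genes rose, from a log2 fold change of 0.37 for Rps15 to 0.79 for Rps27a. Rps27a, which is made as a fusion with ubiquitin, was at 5630, 5719 and 5273 normalised counts in control kidneys and at 9683, 11086 and 8075 in FeD kidneys. Every FeD kidney was far above every control kidney. Its log2 fold change was 0.79 ± 0.114 (SE; edgeR, adjusted P = 9.6e-04). Rps3, a protein at the mRNA entry channel, was at 7996, 8413 and 8032 normalised counts in control and at 11740, 11709 and 10954 in FeD kidneys, so that its FeD values were closer together than for most members. Its log2 fold change was 0.49 ± 0.069 (SE; edgeR, adjusted P = 8.8e-04).

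In the small subunit body 16 of 17 genes rose. Rps6, the substrate of the S6 kinases, was at 10035, 10590 and 10090 normalised counts in control kidneys and at 16636, 17476 and 14406 in FeD kidneys. The groups were well separated, with a log2 fold change of 0.66 ± 0.089 (SE; edgeR, adjusted P = 7.5e-04). Rpsa, the laminin receptor precursor at the surface of the small subunit, was at 10927, 10568 and 10558 in control and at 14418, 14449 and 11377 in FeD kidneys. FeD kidney 3 lay only just above the highest control. Its log2 fold change was 0.33 ± 0.103 (SE; edgeR, adjusted P = 0.031), and it was no longer called with Xist as a term (adjusted P = 0.063), or when any kidney but FeD kidney 3 was left out, over a range of 4.9e-04 to 0.1 in all alternatives.

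Rps27, the member with the largest change, had few counts. Its normalised counts were 9.60, 7.75 and 8.02 in control kidneys and 41.1, 36.4 and 28.5 in FeD kidneys. The groups did not overlap, and the log2 fold change was 2.04 ± 0.294 (SE; edgeR, adjusted P = 9.8e-04). Rps27 lies on chromosome 3 (NCBIM37, the mm9 build, 90016593 to 90017573, minus strand). Of the 100-base stretches of its 345-base transcript, 98.4% occur unchanged in the retrocopy Rps27rt, which had 0 counts in every kidney. The deposited counts came from uniquely mapped reads, and the value for Rps27 rests on 7 to 41 raw counts per kidney. Whether the copies set these low counts was not tested.

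Other members had few counts too. Rpl26, an exit tunnel protein, had 0 counts in all 6 kidneys. Of its 100-base stretches 53.2% occur elsewhere in the genome, and 43.8% in another counted gene. Rpl30 had 3, 2 and 3 counts in control and 2, 6 and 4 in FeD kidneys, with 34.2% of its stretches elsewhere in the genome and 19.4% in a counted gene. Rpl34, at 18.2 to 24.4 normalised counts in control and 11.7 to 23.3 in FeD kidneys, has 24.4% of its stretches in a counted gene and no more elsewhere, and was the only tested core gene with a negative value (log2 fold change -0.20 ± 0.323, SE; edgeR, adjusted P = 0.64). Sharing did not always go with few counts. Rps12 (97.8%) and Rps6 (94.3%) have larger parts of their stretches elsewhere in the genome, none of them in a counted gene, and had 5858 to 9364 and 10035 to 17476 normalised counts in the 6 kidneys. Rps23 has 80.8% in other counted genes and had 4566 to 7873. A count of 0 allows up to 3 counts in a kidney and does not show that Rpl26 is absent.

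In the large subunit, the stalk recruits elongation factors. Rpl12, at the base of the stalk, was at 4478, 4557 and 4416 normalised counts in control kidneys and at 9072, 8471 and 6680 in FeD kidneys. Rps27 aside, it had the highest value of the tested core genes, with a log2 fold change of 0.85 ± 0.111 (SE; edgeR, adjusted P = 6.3e-04). Rplp0, which anchors the stalk, was at 14489, 14477 and 14458 in control and at 22195, 20973 and 18515 in FeD kidneys. Its control kidneys were nearly identical, and it rose by a log2 fold change of 0.51 ± 0.087 (SE; edgeR, adjusted P = 0.0022). Of the acidic stalk proteins, Rplp1 rose with a log2 fold change of 0.40, whereas Rplp2 was at 3636, 3908 and 4055 in control and at 4743, 4849 and 3701 in FeD kidneys. For Rplp2, FeD kidney 3 fell within the control range (log2 fold change 0.20 ± 0.107, SE; edgeR, adjusted P = 0.17), and the gene was called without that kidney (0.32, adjusted P = 0.0029) and with the length correction (0.28, adjusted P = 0.044), over a range of 0.0029 to 0.39.

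Rpl5 and Rpl11 form with an RNA the particle that also binds Mdm2 when ribosome assembly is disturbed. Rpl5 was at 10106, 10741 and 9736 normalised counts in control kidneys and at 17482, 18553 and 15585 in FeD kidneys, with no overlap and a log2 fold change of 0.76 ± 0.089 (SE; edgeR, adjusted P = 3.9e-04). Rpl11 was at 6693, 7194 and 6522 in control and at 9898, 9900 and 7875 in FeD kidneys, with a log2 fold change of 0.44 ± 0.102 (SE; edgeR, adjusted P = 0.0088). Whether the difference between Rpl5 and Rpl11 exceeds their errors was not tested.

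The exit tunnel and the remaining large subunit proteins followed. All 7 tested exit tunnel genes rose, of which Rpl39, a very small protein lining the tunnel, went from 3104, 3126 and 2912 normalised counts to 5098, 5444 and 4562 (log2 fold change 0.72 ± 0.079, SE; edgeR, adjusted P = 2.9e-04). Of 31 other large subunit genes tested, 27 rose. Rpl32 was at 5270, 5555 and 5278 in control and at 10062, 10640 and 7750 in FeD kidneys, with a log2 fold change of 0.82 ± 0.116 (SE; edgeR, adjusted P = 9.2e-04). Rpl23 rose by 0.78 ± 0.086 (SE; edgeR, adjusted P = 2.9e-04). Rpl41, the smallest ribosomal protein, was at 7877, 8746 and 8144 in control and at 9580, 9115 and 7751 in FeD kidneys, and Rpl28 at 5215, 5710 and 5531 in control and at 6569, 6479 and 5037 in FeD kidneys. For both genes FeD kidney 3 was below the lowest control kidney. Their log2 fold changes were 0.09 ± 0.094 (SE; edgeR, adjusted P = 0.44) and 0.14 ± 0.107 (SE; edgeR, adjusted P = 0.33).

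Of the genes whose loss causes Diamond-Blackfan anaemia, 9 were listed, which does not cover all such genes. All 9 rose, where 92% of the tested core genes did, from a log2 fold change of 0.42 for Rps26 to 0.76 for Rpl5, with 0.69 for Rps19, the gene most often affected in patients. All 7 zinc-binding ribosomal proteins rose too, from 0.37 for Rps29 to 2.04 for Rps27, with 0.68 for Rpl36a. Rps29 lost its call without control kidney 1 (adjusted P = 0.061, edgeR) and without control kidney 3 (0.056), over a range of 4.8e-04 to 0.061 in all alternatives.

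Levels between genes can be compared only per length, and here only as uniquely mapped counts. In RPKM, which scales counts by transcript length and by the library total, Rplp1 (955 ± 5.12, SD, n = 3), Rps2 (713 ± 23.1), Rpl10 (697 ± 26.9) and Rps15 (686 ± 22.0) were among the 5 highest core genes in control kidneys. On the same scale they were 1260 ± 87.8, 951 ± 125, 938 ± 80.5 and 882 ± 125 in FeD kidneys (SD, n = 3). In these values Rplp1 was above the others by more than the spread of the control kidneys. Rps2, Rpl10 and Rps15 lay within about their spread of each other. Of the transcript stretches, 30.05% in Rplp1, 58.59% in Rps2, 93.86% in Rpl10 and 10.22% in Rps15 occur elsewhere in the genome. The spread between kidneys does not hold this difference between genes. The order of these genes by mRNA level is therefore not shown.

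The paralogs did not move as one. Rpl22l1, a paralog of Rpl22, was at 1034, 1242 and 1070 normalised counts in control kidneys and at 1612, 1866 and 1573 in FeD kidneys (log2 fold change 0.59 ± 0.094, SE; edgeR, adjusted P = 0.0015). Rpl22 itself was at 3301, 3558 and 3180 in control and at 3874, 4521 and 3510 in FeD kidneys (0.25 ± 0.098, SE; edgeR, adjusted P = 0.071). Rpl22l1 made up 25.0% ± 1.03 (SD, n = 3) of the counts of the pair in control and 29.9% ± 0.958 (SD, n = 3) in FeD kidneys, with no overlap. Of the 100-base stretches, 47.2% in Rpl22l1 and 0% in Rpl22 occur elsewhere in the genome, so the shares are of uniquely mapped counts only.

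Rpl36al, an intron-poor copy of Rpl36a, was at 1978 to 2067 normalised counts in control and 2092 to 2139 in FeD kidneys, a small gap with no overlap and a log2 fold change of 0.05 ± 0.052 (SE; edgeR, adjusted P = 0.44). It was called higher with the length correction (0.18, adjusted P = 0.023) and with the replicate block and length correction together (adjusted P = 0.044), over a range of 0.023 to 0.76. Its share of the pair with Rpl36a was 45.1% ± 1.47 (SD, n = 3) in control and 34.8% ± 2.79 (SD, n = 3) in FeD kidneys, the opposite direction to the share of Rpl22l1. Here 91.7% of the stretches of Rpl36a and 54.8% of those of Rpl36al occur elsewhere in the genome. A share of uniquely mapped counts may thus differ from the share of mRNA, which was not tested. Rps27l, a p53 target, was at 1313 to 1452 in control and 1330 to 1409 in FeD kidneys, with a log2 fold change of -0.02 ± 0.065 (SE; edgeR, adjusted P = 0.79). Its share of the pair with Rps27 was 99.4% in control and 97.5% in FeD kidneys, which rests on the few counts of Rps27. Of the 6 pairs compared, these 3 and the Rpl3l pair reached an exact two-sided permutation p of 0.1, the smallest that 3 kidneys against 3 allow, and 0.15 after Benjamini-Hochberg adjustment.

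Rpl7l1, related to Rpl7 and linked to ribosome assembly, fell from 1544, 1697 and 1695 to 1318, 1187 and 1451 normalised counts (log2 fold change -0.32 ± 0.084, SE; edgeR, adjusted P = 0.015). Rps19bp1 fell from 301, 345 and 360 to 268, 224 and 253 (-0.43 ± 0.113, SE; edgeR, adjusted P = 0.015). Each call was lost without control kidney 2 (adjusted P of 0.067 and 0.061), and also without control kidney 3 (0.063 and 0.068). That of Rpl7l1 was lost without FeD kidney 1 as well (0.053), and that of Rps19bp1 with the correction for gene length (0.085). Over all alternatives the adjusted P ranged from 0.003 to 0.067 for Rpl7l1 and from 0.013 to 0.11 for Rps19bp1. Rps4l, a paralog of Rps4x, rose by 0.52 ± 0.170 (SE; edgeR, adjusted P = 0.037), a call lost without any control kidney, without FeD kidney 1 and with Xist as a term (adjusted P = 0.062, over a range of 0.0046 to 0.11). Rpl3l stayed under 18 normalised counts. Rpl39l and Rpl10l had at most 6 counts in any kidney and were not tested. The retrocopy Rpl37rt was not called (adjusted P = 0.28, edgeR).

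Genes of ribosome components outside the symbol rule were examined in the same way. Of 3 listed and tested, 2 rose and 1 was not called. Fau, whose product is cut into a ubiquitin-like part and a small subunit protein, was at 5868, 6307 and 6143 normalised counts in control and at 10497, 10454 and 7795 in FeD kidneys (log2 fold change 0.65 ± 0.118, SE; edgeR, adjusted P = 0.0028). Gnb2l1 rose by 0.55 ± 0.079 (SE; edgeR, adjusted P = 9.6e-04).

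The start sites of the genes were examined because the tract that defines TOP mRNAs lies there. RefSeq promoter entries (GRCm38.p6, a later build than that of the counts) were at hand for 57 of 77 core genes. A C followed by at least 5 pyrimidines lay within 10 bases before to 20 bases after the annotated start in 33 of these 57 genes (57.9%) and in 24.9% of 27025 genes with an entry. At the start base itself, a C followed by at least 4 pyrimidines was found in 13 (22.8%) against 3.01% of all genes. The windows below run 5′ to 3′ over these 30 bases, with the tract in capitals. They are shown because genes with and without a tract, and genes with a large and a small change, can be set beside each other.

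Rps27: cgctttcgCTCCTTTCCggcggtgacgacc
Rps18: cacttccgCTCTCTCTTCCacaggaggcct
Rps6: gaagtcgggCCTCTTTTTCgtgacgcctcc
Rpl35: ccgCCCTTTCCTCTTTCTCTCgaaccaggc
Rpl28: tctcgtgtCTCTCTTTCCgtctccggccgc
Rplp2: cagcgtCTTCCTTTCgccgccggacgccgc
Rpl23: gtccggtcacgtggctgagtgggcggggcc
Rpl5: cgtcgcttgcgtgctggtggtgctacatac
Rpl36al: ccgtcgctcaggttcagttccgacttccgc
Rpl41: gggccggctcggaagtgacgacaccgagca

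Rps18 (log2 fold change 0.74) and Rpl28 (0.14) both carry a tract that spans the annotated start, and Rpl23 (0.78) and Rpl41 (0.09) carry none in this window. Over the tested core genes with a promoter entry, the median log2 fold change was 0.50 in the 33 with a tract and 0.55 in the 23 without. These medians lay close together, and no test was made of them. The letters of a window say nothing about which start a kidney uses.

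The other mRNAs of the TOP class were next. Of 19 such genes listed, 12 rose and 3 fell, with a median log2 fold change of 0.43. The number that fell was 0 without control kidney 2, and 1 without control kidney 1, control kidney 3 or FeD kidney 1. Tpt1, a growth-linked protein with a classical TOP mRNA, was at 23602, 24568 and 23979 normalised counts in control kidneys and at 45051, 43554 and 36696 in FeD kidneys (0.80 ± 0.097, SE; edgeR, adjusted P = 4.7e-04). Eef1a1, which delivers tRNA to the ribosome, rose by 0.73 ± 0.090 (SE; edgeR, adjusted P = 5.0e-04), Eef2 by 0.49 and the poly-A binding protein Pabpc1 by 0.66. Among the others, Eif3e (0.82) and Eif4b (0.74) rose most, and Eef1d (-0.28) and Vim (-0.26) fell most.

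Mitochondrial ribosomal protein genes went the other way. Of 77 tested, 58 fell and none rose, and the log2 fold changes ran from -0.90 to 0.15 with a median of -0.36. The count that rose was 0 in edgeR, 0 at an unadjusted P under 0.05 and 0 in DESeq2. They make the separate ribosome for mRNAs encoded in mitochondrial DNA. The number that fell was 38 without control kidney 2, 36 without control kidney 3, and 38 with the replicate block and length correction together. Mrps15 went from a mean of 716 to 383 normalised counts (log2 fold change -0.90 ± 0.080, SE; edgeR, adjusted P = 1.2e-04) and Mrps25 from 868 to 463 (-0.90 ± 0.120, SE; edgeR, adjusted P = 6.8e-04).

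Genes that build ribosomes moved less than the ribosomal proteins. Of 97 ribosome biogenesis genes tested, 20 rose and 5 fell, with a median of 0.06, so that 20.6% were higher against 22.4% of all genes. Without control kidney 1, 2 or 3 the number higher was 12, 13 and 13. The nucleolar proteins Npm1 (0.67) and Ncl (0.47) rose, while the rRNA methyltransferase Fbl was at -0.21 ± 0.079 (SE; edgeR, adjusted P = 0.059), a value called lower without FeD kidney 1 (adjusted P = 0.049, range 0.049 to 0.55). Utp20 (0.77) and Nsa2 (0.73) rose most, and Bysl (-0.56) and Bop1 (-0.40) fell most. Of 14 RNA polymerase I genes, which transcribe ribosomal RNA, 4 (28.6%) rose, against 22.4% of all genes, with a median of 0.07. Taf1d was at 1.08 and Polr1a at 0.26. Polr1a was called in 11 of 16 alternatives (range of adjusted P 0.014 to 0.16). It lost its call with the replicate block (0.058), with the length correction (0.085), with both together (0.16), without control kidney 2 (0.11) and without control kidney 3 (0.076).

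Of 37 initiation factors 11 (29.7%) rose and 2 fell, with a median of 0.09. Of 13 elongation and release genes 4 (30.8%) rose and 2 (15.4%) fell. Across all tested genes, 22.4% rose and 23.3% fell. Both lists share genes with the TOP list, such as Eif3e, Eef1a1 and Eef1d, so these counts are not independent of it. Of 31 proteasome subunits, which served as another large complex made in equal parts, 1 rose and 10 fell, with a median of -0.09. With the length correction 4 rose and 4 fell, and without any 1 control kidney 6 fell. Among growth control genes, 13 of 28 rose and 2 fell, and 8 rose without control kidney 1. Ddit4, an inhibitor of mTOR signalling, rose by 2.05 ± 0.10 (SE; edgeR, adjusted P = 1.0e-05) and Sesn2, another inhibitor, by 0.89 ± 0.153 (SE; edgeR, adjusted P = 0.0022). Myc, a driver of ribosomal protein transcription, rose by 0.70 ± 0.142 (SE; edgeR, adjusted P = 0.0048). Larp1 was at 2800, 2793 and 2798 normalised counts in control and at 2791, 2819 and 2726 in FeD kidneys (-0.01 ± 0.051, SE; edgeR, adjusted P = 0.89), and Mtor was not called (adjusted P = 0.38, edgeR). Rps6kb1 was called (0.22, adjusted P = 0.036, edgeR), a call lost in 7 alternatives (range of adjusted P 0.024 to 0.4), those without each control kidney among them, and Eif4ebp1 was not (0.30, adjusted P = 0.069, edgeR). Eif4ebp1 was called higher in 4 of 16 alternatives, those with the length correction, with the replicate block and length correction together, and without FeD kidney 2 or 3 (range of adjusted P 0.0091 to 0.2). Mtor was called lower in 1, with the length correction (adjusted P = 0.034, range 0.034 to 0.91).

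**Figure D3:**
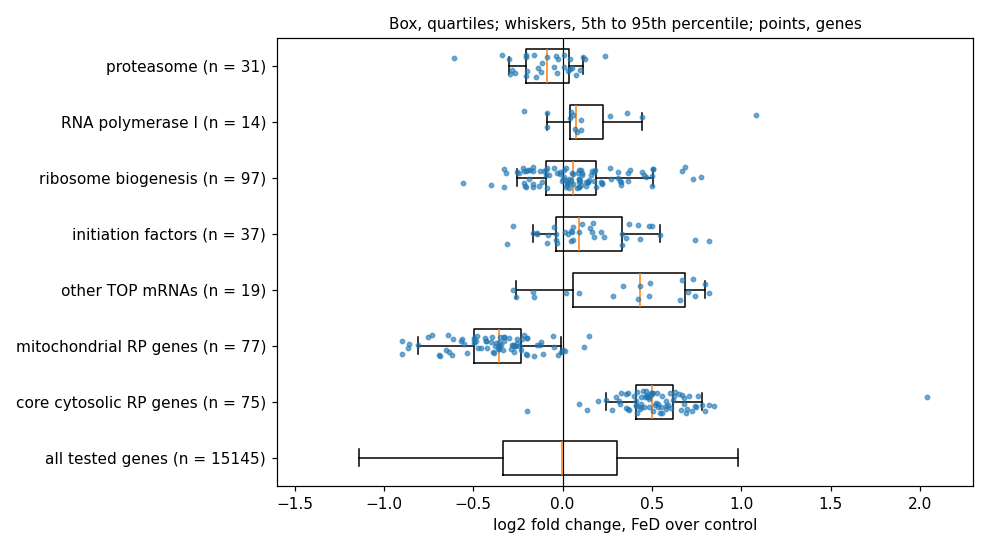
Log2 fold change of FeD over control kidneys for the core cytosolic ribosomal protein (RP) genes, for other lists of the translation machinery and for all 15145 tested genes. Boxes give quartiles, whiskers the 5th to 95th percentile and points single genes. Some genes, such as Eif3e, are in more than 1 list. The core genes sit around 0.50 and the mitochondrial ribosomal protein genes around -0.36.

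Ribosomal protein mRNAs are short, so the values were set beside those of other genes of like exon length. Exon length here joins the exons of every annotated transcript of a gene, so it can exceed the length of 1 mRNA. For Rpl24 it was 6029 bases, against 677 in the transcript used for RPKM, and for Rps19 4685 against 774. Genes of like exon length may thus differ in mRNA length. The length correction used the same measure. Core genes had a median exon length of 1500 bases against 3637 over all tested genes. Among other genes with 501 to 1000 bases of exon, the median log2 fold change was -0.25, while the 20 core genes in that range had a median of 0.55. For other genes it was -0.13 from 1001 to 2000 bases and 0.14 over 8000 bases, and 0.03 up to 500 bases. Core genes with 1001 to 2000 bases had a median of 0.50. With an offset for length fitted in each kidney, 73 of 75 core genes rose, with a median of 0.60.

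**Figure D4:**
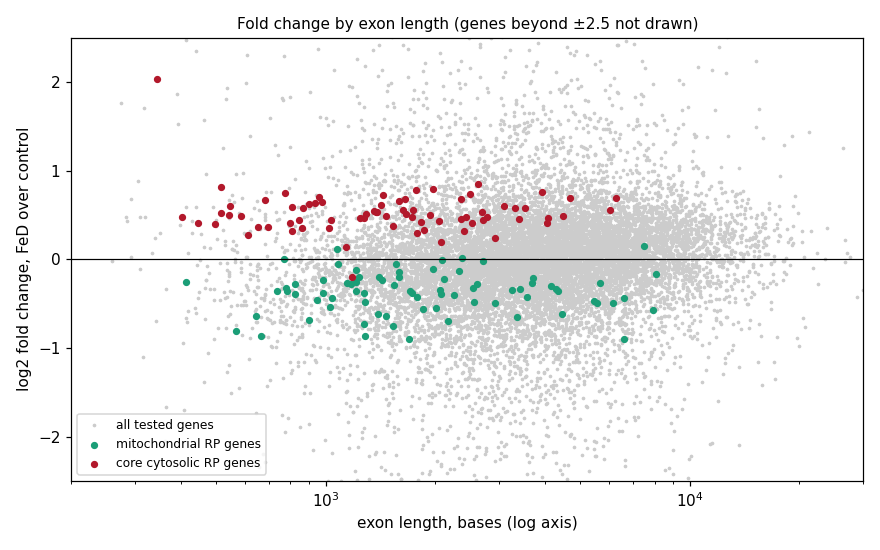
Log2 fold change of FeD over control kidneys against exon length (log axis) for all tested genes, with core cytosolic and mitochondrial ribosomal protein (RP) genes in colour. Of the tested genes, 74 of 75 core genes lie above 0, Rpl34 being below, and 3 of 77 mitochondrial ribosomal protein genes lie above 0. Rpl41, with no exon length, is not drawn.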

How the data were processed

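Kidneys of 3 control and 3 FeD pups were grouped by the labels. The authors demultiplexed reads with CASAVA 1.8.2, trimmed them with Trimmomatic, aligned single-end reads to mm9 with TopHat2 2.0.11 and deposited raw HTSeq counts of uniquely mapped reads. The annotation, strand setting and litter numbers are not given in the sources used here. From these counts, genes were filtered with filterByExpr, scaled by TMM and tested with the quasi-likelihood fit of edgeR 4.0.16 (R 4.3.3). P-values of 15145 genes were adjusted by Benjamini-Hochberg, with calls at an adjusted P under 0.05. The common biological coefficient of variation was 0.128. Normalised counts use the TMM factors and are set to the average total. Standard errors are the log2 fold change over the root of F. No pair of kidneys within a group agreed within sampling noise. The fit was tested on simulated data, where estimated sizes were close to those set and false calls were few. Most changes at the median size seen in the core genes were missed there, with far fewer changed genes than in these kidneys, and a first requirement that most of them be found was not met and was dropped after this was seen. The members and lists were chosen with earlier results of these data known. Genes were named by rule: members at least 2-fold changed, the 6 highest and 6 lowest, the 5 highest per kilobase, and fixed lists. Genes such as Rpl26, Rpl30, Rps23, Rpl7a and Rps18 were named after their values were seen. Exon lengths and copied stretches came from GENCODE vM1 on NCBIM37, where 87 of 88 members matched (not Rpl41) and 90.7% of tested genes had a length. Alternatives were other scalings, filters, DESeq2 1.42.0, a replicate block, a length correction and each kidney left out. Xist as a term was chosen after seeing the data. Total counts are given in the report. Values of a few genes are not reported here.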

Additional observations from a re-analysis of the deposited data

How the results depend on the processing

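The count of core genes called higher was 69 and stayed between 68 and 73 under every alternative with all 6 kidneys, and between 60 and 74 with each kidney left out in turn. No core gene was called lower under any of them. The median log2 fold change of the core genes ranged from 0.45 with Xist as a term to 0.60 with the length correction, and from 0.47 to 0.62 with kidneys left out. The number of members called lower was 2, and it was 1 with the length correction, 1 with the replicate block and the length correction together, and 0 to 2 with kidneys left out. The cause was not tested. Replicate numbers were not used to pair the kidneys in the main fit. The correlation of deviations from the group means was -0.157, 0.00647 and -0.0404 for the same-numbered kidneys. For differently numbered kidneys it ran from -0.0787 to 0.157. With 3 kidneys a group, these values cannot decide whether same-numbered kidneys were linked. With the replicate block, 71 core genes rose with a median of 0.49, and 3100 genes rose and 3344 fell over all genes, against 3397 and 3527 without it. Calls lost under some settings included those of Rps4l, Rpsa, Rps29, Rpl7l1, Rps19bp1, Polr1a and Rps6kb1. Calls of Rplp2, Rpl36al, Fbl, Mtor and Eif4ebp1 were among those gained. Not every lost call is listed, since 60 core genes were called without control kidney 1 against 69 with all 6 kidneys. With 3 kidneys a group, changes of the size seen in the core genes can be missed, so that a gene not called is not shown to be unchanged, and members with few counts (Rpl26, Rpl30, Rpl34 and Rps27) could not be measured well.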
